A study of Mus musculus with 7 samples.

Results

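Heat shock proteins and their J-domain cochaperones were examined in osteocyte-enriched long bone of mice with and without Mbtps1 in Dmp1-Cre-expressing cells. Members were all genes whose symbol begins with Hspa, Hspb, Hspd, Hspe, Hsph, Hsp90a, Dnaja, Dnajb or Dnajc and that had a probe set naming that gene alone. Hspa5, Dnajb9, Dnajb11 and Dnajc3, chaperones of the endoplasmic reticulum (ER), were left out of the set. The rule found 67 genes among 19938 named genes. The chosen probe set of 58 of them lay above the low-signal filter, as did those of 13938 of all genes. The set held 12 genes of the Hsp70 and Hsp110 families, 1 Hsp90 gene, 2 chaperonin genes, 8 small heat shock protein genes, 4 Dnaja, 11 Dnajb and 27 Dnajc genes. It also held Hspbp1 and Hspbap1, which share the Hspb prefix but are not small heat shock proteins. Hspb11, a component of ciliary transport, was counted among the 8 small heat shock protein genes by its prefix.

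Chaperones of the Hsp70 family bind unfolded stretches of proteins and release them in a cycle driven by ATP. J-domain proteins bring clients to Hsp70 and trigger its ATP hydrolysis, and Hsp110 proteins act as nucleotide exchange factors that reset the cycle. Hsp90 completes the folding of kinases and steroid receptors, chaperonins fold proteins inside a closed chamber, and small heat shock proteins hold unfolding proteins without using ATP. When unfolded proteins accumulate in the cytosol, heat shock factor HSF1 binds heat shock elements in the promoters of the inducible members and raises their transcription.

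The knockout mice lacked Mbtps1, which encodes the Golgi enzyme site-1 protease, in cells that express Cre under the Dmp1 promoter, mostly osteocytes and mature osteoblasts. Controls were littermates labelled wildtype. Whether they carried the Cre transgene is not said in the labels, nor is it said which mice shared a litter. All 7 mice (4 controls, 3 knockouts) were males aged 39 to 41 weeks, and each gave 1 Affymetrix whole-transcript array. Cells without Dmp1-Cre keep Mbtps1. In bone of this kind, fewer cells of a type and less RNA per cell cannot be told apart. P-values measure the spread between these 7 samples.

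All values are probe set intensities, and differences are on a log2(intensity + 16) scale, knockout minus control, which understates changes of weak signals. Median intensity per array lay between 87.3 and 107.7. Control 4 stood apart: it was the lowest of the 7 arrays for 43.2% of all genes tested and the highest for 20.7%. All 10 osteocyte markers passed the filter, 8 of them lower in the knockouts at an unadjusted p under 0.05 (limma), beside 2.71% of all genes. The other markers were Fgf23, higher by 0.25, and Pdpn, at -0.08. This marker list was chosen with earlier results of these data known, so its counts are a description only. The summed intensity of the 10 was 4510.0 to 11225 in controls and 2472 to 3399 in knockouts. Markers of skeletal muscle (12 of 14), erythroid cells (6 of the 6 named), B cells (9 of the 9 named) and neutrophils (10 of 10) also passed the filter in this tissue, from which marrow had been removed.

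No heat shock protein or J-domain gene differed between knockout and control after adjustment over all 13938 genes. The members' smallest adjusted p was 0.768 (limma with Benjamini-Hochberg adjustment). No gene of the whole array passed that threshold either (0%). Without adjustment, 6.49% of all genes had p under 0.05 in limma, 2.71% lower and 3.77% higher in the knockouts. Among the 58 measured members the same counts were 0 lower and 1 higher, the latter being Dnajc6. All knockouts lay below all controls for 2.76% of all genes and above for 5.22%, 7.99% in either direction. This held for 2 members, Hspa1a below and Dnajc6 above.

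Measured members lay close to the average gene of the array. Their median log2 difference was 0.03, with a range of -0.32 to 0.29, and the median over all genes was 0.07. Under the 17 processing alternatives the members' median ran from -0.03 to 0.07 and was below 0 in 5 of them, while that of all genes ran from 0.01 to 0.09. There were 21 members below 0 and 37 above it, so 36.2% lay below, beside 32.3% of all genes. The 95% confidence interval of the difference excluded a change of 1.5-fold or more in either direction for 55 of the 58 members (94.8%), and for 82.0% of all genes tested. A change of 2-fold or more lay outside the interval of all 58. The 3 members whose interval reached past 1.5-fold were Hspa1a (-0.68 to 0.03), Dnaja4 (-0.02 to 0.60) and Hsph1 (-0.43 to 0.64). For 57 of 58 members the difference between genotypes was smaller than the range of the 4 controls, as for 95.8% of all genes. These intervals are from limma and are not adjusted for the number of genes.

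**Figure D1:**
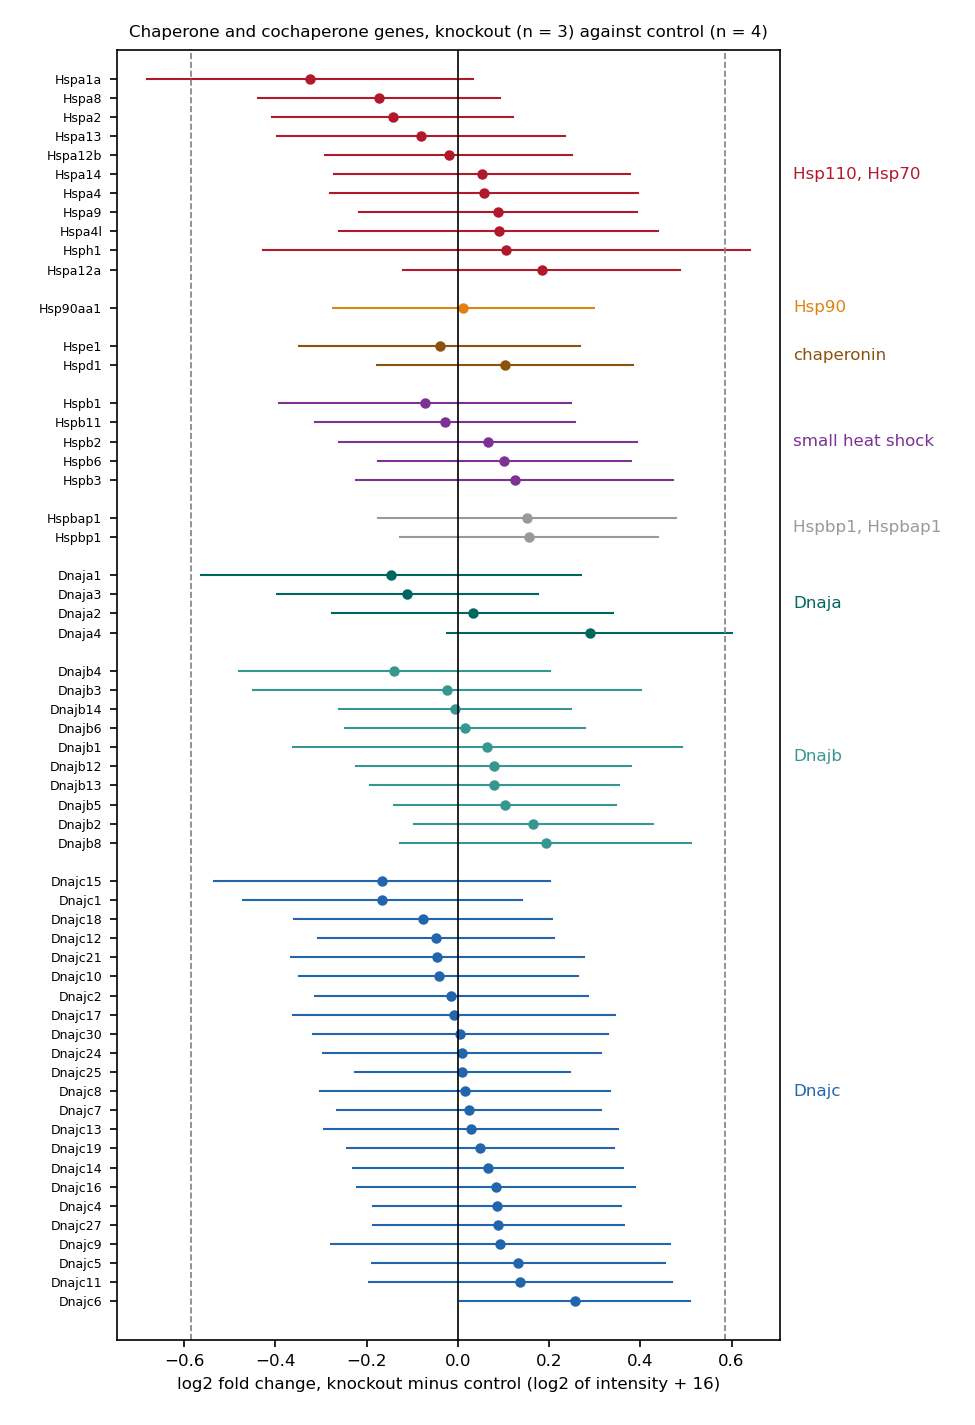
Log2 fold change (points) and its 95% confidence interval from limma (lines) for the 58 measured members, grouped by family, 3 knockouts against 4 controls. Dashed lines mark 1.5-fold in either direction. Points run from -0.32 (Hspa1a) to 0.29 (Dnaja4), and the interval of Dnajc6 alone leaves out 0.

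Promoters of members known as heat shock genes, and of the members with the lowest and highest differences (Hspa1a and Dnaja4), are shown for their heat shock element letters. RefSeq promoter windows (GRCm38.p6, 250 bases before the start site to 50 after it) were found for 54 of the 67 members. They were searched on both strands for facing heat shock element units: 2 units (GAANNTTC or TTCNNGAA) or 3 units (GAANNTTC followed by NNGAA, or TTCNNGAA followed by NNTTC), the latter always containing the former. At least 2 units stood in a promoter of 15 members (27.8%), beside 17.0% of all 27025 genes. A run of 3 units stood in promoters of 4 members (7.41%), Dnajb6, Hspd1, Hspe1 and Hsph1, beside 0.662% of all genes. Of the members listed as stress-inducible, 8 of the 10 with a window held 2 units, beside 7 of 44 other members. Those without a match were Dnajb1 and Hspa4l, and in Hspb8 the match lies after the start site. Below are the 150 bases before the start site, 5′ to 3′ along the gene, with matching runs in capitals.
Hspa1a: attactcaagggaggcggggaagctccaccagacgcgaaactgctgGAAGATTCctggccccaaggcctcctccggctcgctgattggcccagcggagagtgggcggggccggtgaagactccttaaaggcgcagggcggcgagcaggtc
Hspe1: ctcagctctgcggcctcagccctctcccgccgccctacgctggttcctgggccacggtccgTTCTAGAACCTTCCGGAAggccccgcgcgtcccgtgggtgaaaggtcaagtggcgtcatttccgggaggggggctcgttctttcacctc
Hsph1: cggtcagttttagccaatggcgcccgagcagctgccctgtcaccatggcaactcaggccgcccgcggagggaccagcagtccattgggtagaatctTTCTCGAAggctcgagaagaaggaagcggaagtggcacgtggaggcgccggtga
Dnaja1: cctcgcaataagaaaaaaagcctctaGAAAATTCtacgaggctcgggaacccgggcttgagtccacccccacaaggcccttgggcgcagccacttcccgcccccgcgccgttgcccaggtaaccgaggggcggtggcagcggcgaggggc
Dnaja4: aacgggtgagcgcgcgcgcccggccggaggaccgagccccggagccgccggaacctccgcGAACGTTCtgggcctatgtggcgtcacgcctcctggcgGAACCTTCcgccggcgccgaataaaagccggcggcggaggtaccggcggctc
They lie at chr17:34972157-34972306 (Hspa1a, minus strand), chr1:55087998-55088147 (Hspe1, plus strand), chr5:149636316-149636465 (Hsph1, minus strand), chr4:40722318-40722467 (Dnaja1, plus strand) and chr9:54699409-54699558 (Dnaja4, plus strand). In Hspe1 the capitals span 18 bases, and the same stretch, read from the other strand, stands before a start of Hspd1, its divergent neighbour. The 3-unit run of Hsph1 lies after the start site and is not shown. Dnaja4 has 2 separate runs, which begin 90 and 52 bases before the start. Hsph1, Dnaja1, Dnaja4 and Hspd1 have other start sites with windows of their own, so each line stands for 1 of them. The Dnaja1 and Dnaja4 lines were picked because they hold a match: the 2 other windows of Dnaja1, the other of Dnaja4 and the other of Hspd1 hold none, while both windows of Hsph1 do. A match describes letters only and is not a measured binding site.

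Among Hsp70 genes, the stress-inducible Hspa1a had the largest difference of any member toward lower values. Its intensity was 135, 81.7, 80.1 and 87.1 in controls 1 to 4 and 66.4, 80.1 and 69.7 in knockouts 1 to 3. Control 1 was far above the other controls, and the groups failed to overlap by only 0.021 intensity units, between control 3 and knockout 2. The log2 difference was -0.32 (SE 0.16, adjusted p = 0.789 in limma), and the two-sided exact permutation p was 0.114, where 0.0286 is the smallest that 4 against 3 arrays allow. Without control 1 the difference was -0.17. The probe set is weak, 6.64 on the log2 scale beside a filter at 6.42. A further probe set that names both Hspa1a and its near-identical copy Hspa1b read 196.1, 152.7, 176.1 and 192.8 in controls and 163.2, 178.7 and 188.3 in knockouts. These groups overlapped, with a log2 difference of -0.02. The 150 bases before the starts of Hspa1a and Hspa1b are identical at 149 of 150 positions. Hspa1b had no probe set of its own.

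Hspa8, the constitutive Hsp70 (Hsc70) that also strips clathrin from vesicles, read 3383, 4253, 3901 and 3252 in controls and 2860.1, 3757 and 3224 in knockouts. Knockouts 1 and 3 lay below every control, and knockout 2 lay inside the control range. The difference was -0.17 (SE 0.12, adjusted p = 0.826), and all 3 probe sets naming Hspa8 alone gave -0.19 to -0.16. A further pair of probe sets naming Hspa8 together with the small nucleolar RNA genes Snord14c and Snord14d, which lie in its introns, gave -0.37 and -0.33 and cannot tell these genes apart. Hspa2, an Hsp70 of male germ cells, read 132, 154, 137 and 132 in controls and 113, 143 and 118 in knockouts, -0.14 with overlapping groups. Of the 4 measured cytosolic Hsp70 genes 3 lay below 0, and their median was -0.16, beside 0.07 for all genes. The exception was Hspa14, a ribosome-associated Hsp70, at 0.05.

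Hsp70 proteins of other compartments lay on both sides of 0. Hspa9 (mortalin), the Hsp70 of mitochondria, read 486, 498, 578 and 438 in controls and 496, 564 and 532 in knockouts, a difference of 0.09 (SE 0.14). The distant relative Hspa12a read 89.4, 68.1, 89.5 and 104 in controls and 106, 91.1 and 107 in knockouts, with all knockouts above 3 of the 4 controls and a difference of 0.18 (SE 0.14, adjusted p = 0.834). Hspa13, bound to the ER, and Hspa12b had differences of -0.08 and -0.02. The 3 Hsp110 genes, Hspa4, Hspa4l and Hsph1, had differences of 0.06, 0.09 and 0.11, none beyond its spread.

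Hsph1, the inducible Hsp110, was the most variable member within groups. It read 146, 289, 255 and 137 in controls and 172, 288 and 194 in knockouts. Controls thus spanned 2.10-fold, with controls 1 and 4 low and controls 2 and 3 high, and the knockouts fell inside that span. Its SD within groups, 0.45 on the log2 scale, was higher than that of 98.0% of all genes tested. The median SD was 0.17 for the 58 members and 0.19 for all genes. Besides Hsph1, only Dnajb3, Dnaja1 and Dnajb1 stood above 90% of genes in this respect.

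**Figure D2:**
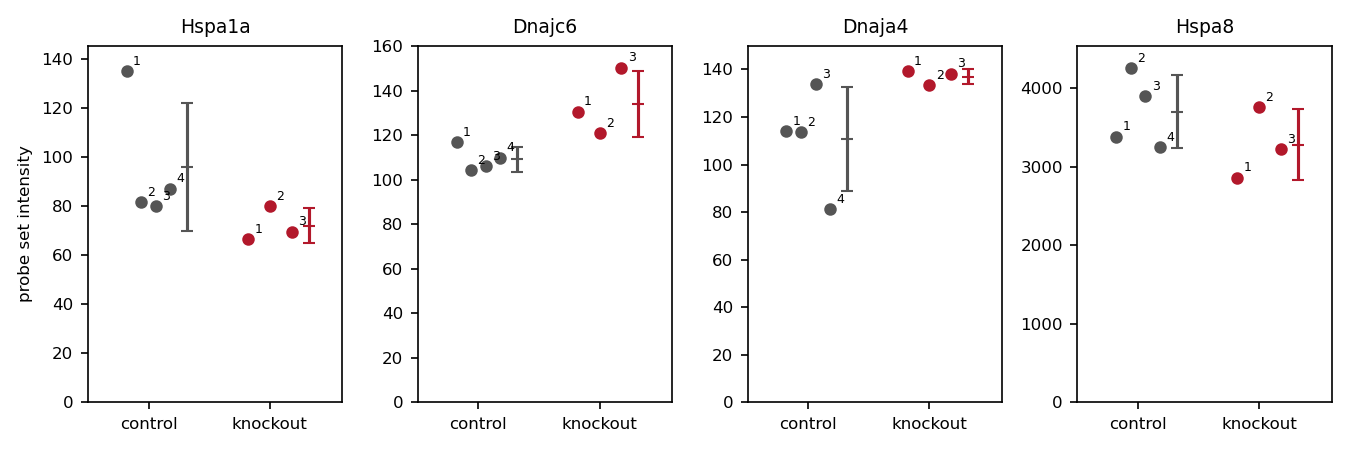
Probe set intensity (linear axes from 0) of Hspa1a, Dnajc6, Dnaja4 and Hspa8 on each array, with replicate numbers beside the points and the mean ± SD to the right (4 controls, 3 knockouts). Hspa1a has control 1 at 135 and the other controls within 80.1 to 87.1, and for Dnajc6 all 3 knockouts lie above 117, the highest control.

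Hsp90aa1, the inducible cytosolic Hsp90, read 1749, 2151, 1811 and 1771 in controls and 1637, 2225.5 and 1822 in knockouts. Control 2 and knockout 2 were the high arrays of their groups, and the genotypes differed by 0.01 (SE 0.13, adjusted p = 0.993). Hsp90ab1, the constitutive form, had no probe set of its own and is not analysed here. The mitochondrial chaperonin Hspd1 (Hsp60) read 1049.8, 1217, 1201 and 1029 in controls and 1081.5, 1314 and 1232 in knockouts, a difference of 0.10 (SE 0.13). Its lid Hspe1 (Hsp10) read 1267, 1671, 1414 and 1308 in controls and 1185.5, 1587 and 1361 in knockouts, a difference of -0.04 (SE 0.14). Both were highest in control 2 among controls and in knockout 2 among knockouts.

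Of 8 genes grouped by prefix as small heat shock proteins 5 were measured, Hspb11 among them. Their differences were -0.07 to 0.12, with a median of 0.07. Hspb1 (Hsp25), which protects actin filaments, read 102, 99.4, 95.98 and 149.9 in controls and 97.15, 105 and 110.2 in knockouts, a difference of -0.07 (SE 0.15). Hspb2, a partner of Hspb3 in muscle, read 98.3, 89.4, 81.8 and 135 in controls and 102, 99.9 and 114 in knockouts, a difference of 0.07. Hspb3 read 68.0, 56.5, 58.8 and 94.4 in controls and 83.8, 73.9 and 70.3 in knockouts, a difference of 0.12.

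For these 3 genes control 4 was the highest of the 7 arrays, and the knockouts fell within the control range. Hspb7, a small heat shock protein of heart and muscle below the filter, had the same high array, with 77.9, 60.2, 65.2 and 99.2 in controls and 59.6, 55.4 and 64.7 in knockouts. Control 4 was the highest array for 5 of 58 members (8.6%), beside 20.7% of all genes and 4.6% of the brightest 10% of genes. It was the lowest for 31 members (53.4%), beside 43.2% of all genes and 73.5% of the brightest 10%. Hspb1, Hspb2, Hspb3 and Hspb7 thus ran against most of the set, but their signals were weak. The other measured members with control 4 highest, Dnajc12 and Hspa12b, were weak too, with control means of 74.8 and 82.8. The share among weak genes was not computed, so the high array is not read as a trait of small heat shock proteins. Control 4 also had the highest osteocyte marker sum (11225, beside 4510.0 to 5801 in the other controls) and the lowest erythroid marker sum (4611, beside 7545 to 8829 in the other 6 arrays). Its skeletal muscle marker sum, 1646, was the highest by a small margin over control 1 (1630) and knockout 1 (1599). What part these cell types have in the small heat shock protein values was not tested. Hspb6 (Hsp20), at 157 to 191 in controls and 167 to 208 in knockouts, and Hspb11, a component of ciliary transport, at 118 to 166 and 128 to 151, did not share the high array. Hspb8, the partner of the cochaperone Bag3, was below the filter, at 48.1 to 55.9 in controls and 44.6 to 54.5 in knockouts.

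**Figure D3:**
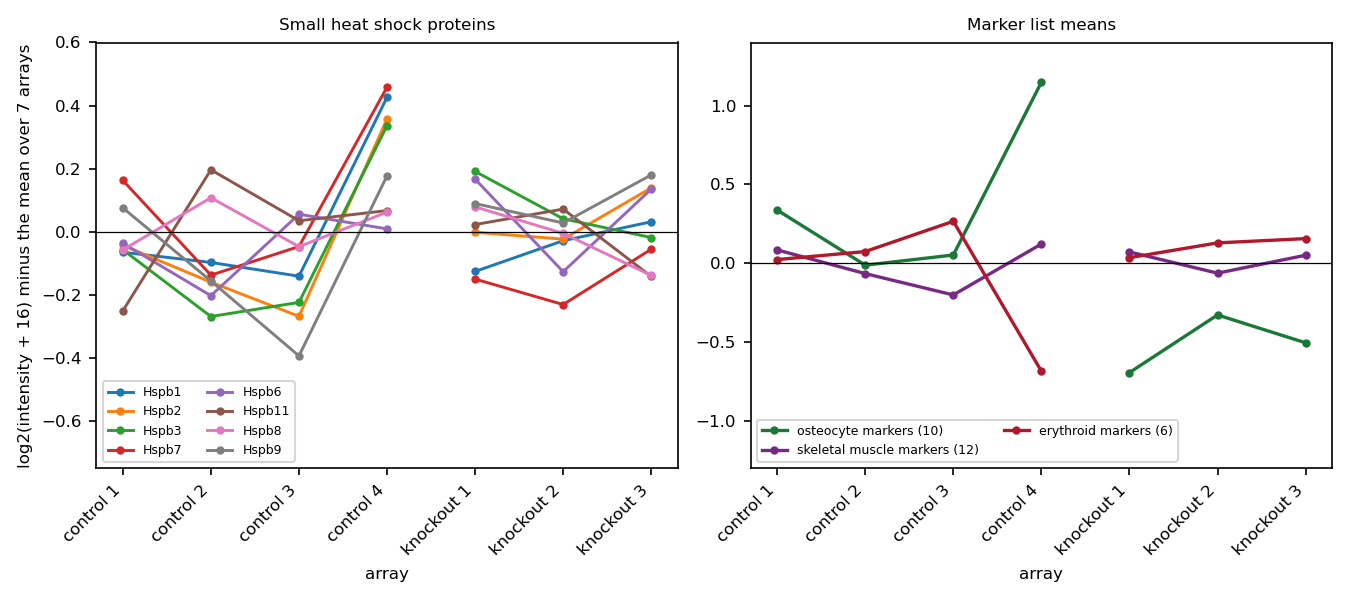
Genes grouped by prefix as small heat shock proteins (left) and mean log2 level of marker lists (right) on each array. Values are log2(intensity + 16) minus the mean over the 7 arrays, and the key gives the number of genes per marker list. Hspb1, Hspb2, Hspb3 and Hspb7 are highest in control 4, where the osteocyte markers are also highest and the erythroid markers lowest; Hspb7, Hspb8 and Hspb9 did not pass the filter.

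The Dnaja proteins are the J-domain proteins closest to bacterial DnaJ. Dnaja4 had the largest difference of any member toward higher values, with 114, 114, 134 and 81.2 in controls and 139, 134 and 138 in knockouts. Control 4 was the low array, control 3 reached the level of knockout 2, and the knockouts lay close together. The difference was 0.29 (SE 0.14, adjusted p = 0.789 in limma), with a two-sided exact permutation p of 0.0857. Without control 4 it was 0.17, and without control 3 it was 0.37.

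Dnaja1, the main cytosolic class A cochaperone, had a negative difference, with 1071, 1799.5, 1191 and 1010.1 in controls and 962, 1328.5 and 1081 in knockouts. Control 2 exceeded all other arrays and was 1.78-fold above control 4, the lowest control. The difference of -0.15 (SE 0.19, adjusted p = 0.890) turned to 0.03 without control 2. The other probe set naming Dnaja1 alone, a weaker one, gave 254.5, 443, 323 and 273 in controls and 247, 304 and 225 in knockouts, with control 2 again the highest array and a log2 difference of -0.28. A probe set naming both Dnaja1 and the microRNA gene Mir207 gave 941, 715, 720.3 and 1011 in controls and 1205, 978 and 1132 in knockouts, a log2 difference of 0.39 opposite in sign to that of Dnaja1 alone. Dnaja2, cytosolic like Dnaja1, and the mitochondrial Dnaja3 had differences of 0.03 and -0.11.

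Of 10 measured Dnajb genes 7 lay above 0, and their median was 0.07, that of the average gene. Dnajb1 (Hsp40), the cochaperone that rises most with Hspa1a in the heat shock response, read 341, 388, 471 and 233 in controls and 374, 376 and 343 in knockouts. The controls spanned 2.02-fold, the knockouts lay in the middle of that span, and the difference was 0.06 (SE 0.20). Dnajb4, also inducible, read 463, 529, 612 and 425 in controls and 402, 503 and 464 in knockouts, a difference of -0.14 (SE 0.16).

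Dnajb6, which holds back aggregation of polyglutamine proteins, was steady at 181 to 215 in controls and 198 to 219.9 in knockouts, a difference of 0.02 (SE 0.12). Probe sets that name Dnajb6 together with Gm4247 cannot tell the pair apart and gave -0.11 to -0.07. Dnajb2, a ubiquitin-binding J-domain protein best known from neurons, read 162, 128, 149 and 140.3 in controls and 178, 158 and 156 in knockouts, a difference of 0.17 (SE 0.12, adjusted p = 0.831). Dnajb5 read 130.2, 117, 108 and 125 in controls and 132, 132 and 126 in knockouts, a difference of 0.10. Knockout 1 of Dnajb2 and knockouts 1 and 2 of Dnajb5 exceeded all controls, and the groups overlapped for both. Dnajb8 of the testis read 103, 87.4, 69.6 and 113 in controls and 105, 102 and 115 in knockouts, a difference of 0.19 (SE 0.15). Dnajb12 and Dnajb14, which sit in the ER membrane, had differences of 0.08 and -0.01.

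The Dnajc proteins share only the J domain with the other classes and direct Hsp70 to particular tasks. Of 23 measured genes 8 lay below 0 and 15 above, with a median of 0.02. Dnajc6 (auxilin), which recruits Hspa8 to uncoat clathrin-coated vesicles, read 117, 104, 106 and 110.0 in controls and 131, 121 and 150.3 in knockouts. Every knockout exceeded every control, by at least 4.18 intensity units, and the controls were close together. The difference was 0.26 (SE 0.12), with an unadjusted p of 0.0468 and an adjusted p of 0.768 in limma and a two-sided exact permutation p of 0.0286, the smallest possible. Its unadjusted p in limma was above 0.05 when control 1, control 2, control 3, knockout 1 or knockout 3 was left out, reaching 0.23 without knockout 3.

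The lowest difference in this class was that of Dnajc15, a J-domain protein of the mitochondrial inner membrane that restrains the respiratory chain. It read 456, 489, 479 and 311 in controls and 364, 418 and 357 in knockouts. Controls 1 to 3 lay above all knockouts and control 4 below them, so the difference of -0.17 (SE 0.17, adjusted p = 0.866) became -0.31 without control 4 (adjusted p = 0.238). Dnajc1, in the ER membrane, read 179, 209, 223 and 179 in controls and 158, 209.9 and 158 in knockouts, with knockouts 1 and 3 below all controls and a difference of -0.17 (SE 0.14). Dnajc5 (cysteine string protein), a chaperone of secretory vesicles, read 511, 497, 584 and 413 in controls and 593, 516 and 535 in knockouts, a difference of 0.13 (SE 0.15). The other 19 had differences of -0.08 to 0.14. Among them were the nuclear Dnajc8 and Dnajc9 (0.02 and 0.09), the ribosome-linked Dnajc2 and Dnajc21 (-0.01 and -0.05), the ER reductase Dnajc10 (-0.04) and the endosomal Dnajc13 (0.03). Of 15 probe sets for Dnajc13, 11 lay below 0 and 4 above, between -0.35 and 0.06.

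Grouped by compartment, the 8 mitochondrial members had a median of 0.03 with 3 below 0, and the 9 members of the ER membrane or lumen had a median of -0.01 with 5 below 0. For comparison, the 4 ER chaperones left out of the set had differences of -0.48 (Dnajb9, unadjusted p = 0.0123, adjusted p = 0.659 in limma), -0.10 (Hspa5), -0.09 (Dnajc3) and 0.11 (Dnajb11). Of 9 members known from germ cells, 4 passed the filter, with differences of -0.14 to 0.19. Below the filter were Hspa1l, Hspb7, Hspb8, Hspb9, Dnajb7, Dnajc5b, Dnajc5g, Dnajc22 and Dnajc28. Closest to the threshold of 6.42 were Hspb9 (6.38) and Hspb7 (6.39) outside and Hspb3 (6.45) and Dnajc12 (6.48) inside. Hspbp1, an Hsp70 nucleotide exchange factor, and Hspbap1, a Hspb1-associated protein, had differences of 0.16 (SE 0.13) and 0.15 (SE 0.15). Hspbp1 read 289.7, 232, 270.4 and 272 in controls and 313, 283 and 297 in knockouts, so 2 knockouts exceeded all controls.

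For every measured member listed as stress-inducible, the difference between genotypes was smaller than the range of the controls, as for 95.8% of all genes. The stress-inducible list includes Hspa8, described above as the constitutive Hsp70. It held 11 measured genes, with 6 below 0 and 5 above and a median of -0.04. Their mean log2 level was 9.07, 9.33, 9.25 and 8.97 in controls 1 to 4 and 8.97, 9.28 and 9.08 in knockouts 1 to 3. Control 2 was the highest control and knockout 2 the highest knockout. Both held at once for 6 of the 11 (Hspa8, Hsph1, Hsp90aa1, Hspd1, Hspe1 and Dnaja1), for 16 of the 58 members (27.6%) and for 7.6% of all genes. Among the brightest 10% of all genes, which hold 5 of these 11, it held for 25.1%. Knockout 2 was the highest knockout for 10 of the 11, beside 33.4% of all genes and 52.7% of the brightest 10%. Control 2 and knockout 2 were also both highest for genes outside the inducible list. These were all 4 of the ER chaperones left out of the set and 5 of the 8 subunits of the cytosolic chaperonin CCT. This pattern was noticed in the data and has no test.

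The size of this variation was largest for Hsph1, where knockout 2 exceeded the mean of knockouts 1 and 3 by 0.61 on the log2 scale. The same excess was 0.38 for Dnaja1, 0.36 for Hsp90aa1, 0.32 for Hspe1 and 0.31 for Hspa8, each larger than the difference between the genotypes for that gene. Dnajb1, Dnajb4 and Hspa4l were also highest in knockout 2 among knockouts, but in control 3 among controls. Hspa1a was highest in control 1 and knockout 2, and Hspb1 in control 4 and knockout 3. B cell markers also had control 2 and knockout 2 highest, for 6 of 9 genes, with sums of 4409 in control 2 (2025 to 3493 in the other controls) and 4278 in knockout 2 (3913 and 3998 in the others). Their part in the pattern was not tested.

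**Figure D4:**
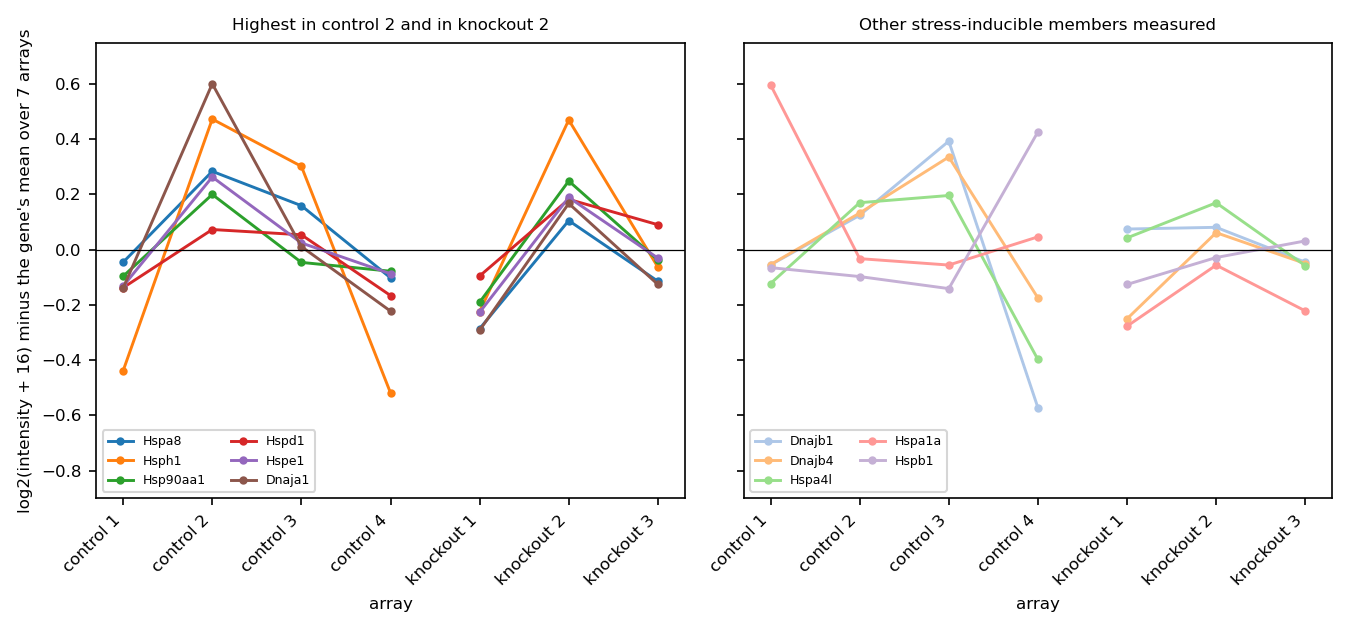
The 11 measured members of the stress-inducible list, Hspa8 among them, on each array. Values are log2(intensity + 16) minus the gene's mean over 7 arrays, and lines join arrays of 1 genotype. The 6 genes on the left are highest in control 2 and in knockout 2, while on the right Hspa1a is highest in control 1 and Hspb1 in control 4.

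Immediate early genes, another fast stress-response group, gave a contrasting result on the same arrays. Their list was chosen with earlier results of these data known, so its counts are a description only. All 13 genes of that list were lower in knockouts at an unadjusted p under 0.05 (limma), beside 2.71% of all genes, with a median of -0.82, and none passed adjustment. Most osteocyte markers moved with them, with a median of -1.18, but Fgf23 (0.25) and Pdpn (-0.08) did not. Control 4 was the highest array for 9 of 10 markers and for 9 of the 13 immediate early genes, beside 20.7% of all genes. The part of osteocytes in that result was not tested. The mean log2 level of the immediate early genes was 9.29, 8.42, 8.85 and 9.35 in controls and 7.90, 8.36 and 8.07 in knockouts. Controls 1 and 4, the highest for this list, were the lowest for stress-inducible chaperones. Control 2, the lowest control for this list, was the highest for the chaperones. The brightest 10% of all genes, which hold 5 of the 11 inducible members, also had controls 1 and 4 lowest among controls (mean log2 9.82 and 9.58). There control 3 was the highest control, followed by control 2 (9.93). Over all genes, controls 2 and 4 were the lowest (7.65 and 7.61). Whether the opposite order is particular to these lists was not tested. The immediate early and the stress-inducible list both had knockout 2 as the highest knockout.

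Partners of the heat shock proteins gave no difference past the threshold either, adjusted or unadjusted. Of the transcriptional regulators, Hsf2, Hsf4 and Hsbp1, an inhibitor of HSF1, had differences of -0.03, 0.09 and -0.08, while Hsf1 had no probe set naming it alone. Of 9 Hsp70 cofactors 7 lay above 0, with a median of 0.07. Stub1 (CHIP), the ubiquitin ligase that acts on Hsp70 clients, read 402, 438, 418 and 368 in controls and 449, 473 and 455 in knockouts. Every knockout lay above every control, as for 5.22% of all genes. The difference was 0.17 (SE 0.13, adjusted p = 0.834 in limma), with a two-sided exact permutation p of 0.0571. Bag5, an exchange factor, had the lowest difference of these, -0.22 (SE 0.13). Bag3, itself an HSF1 target, was at 0.01.

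Of 10 Hsp90 cofactors 6 lay above 0, with a median of 0.03 and a range of -0.25 (Sugt1) to 0.14 (Fkbp4), and Ppid was at 0.10. Control 2 and knockout 2 were the high arrays for 7 of these 10. All 8 subunits of the cytosolic chaperonin CCT lay above 0, by 0.04 to 0.15 with a median of 0.08, near the 0.07 of all genes. The largest were Cct3 (0.15) and Cct2 (0.10). Control 4 was the lowest of the 7 arrays for all 8, beside 43.2% of all genes and 73.5% of the brightest 10%. Cryab, a small heat shock protein outside the symbol rule, and Serpinh1 (Hsp47), the collagen chaperone, had differences of -0.24 (SE 0.15) and -0.22 (SE 0.20).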

How the data were processed

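Total RNA from osteocyte-enriched bone was hybridised to 7 arrays (4 controls, 3 knockouts). Per the labels' protocols, a NuGEN kit turned RNA into biotinylated cDNA. The authors deposited 1 linear intensity per probe set and array. Per the submitters' processing notes, these came from Affymetrix Expression Console 1.4 and PLIER. Normalization between arrays is not given in the sources used here. In all, the file holds 35556 probe sets, of which 21789 name 1 gene, 1621 several and 12146 none. Names came from the platform annotation, and all 67 member symbols were found in RefSeq (GRCm38.p6), whose promoter table gave the sequences (windows on chromosome 18 were not used). The probe set with the highest mean stood for each gene, and those under the 30th percentile (log2 6.42, intensity 69.7) were left out.

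Log2(intensity + 16) was compared in limma 3.58.1 (R 4.3.3) with a mean-variance trend, 5 residual degrees of freedom (12.6 after moderation) and Benjamini-Hochberg adjustment over 13938 genes at 0.05. Single members also had an exact permutation test over all 35 splits. On simulated data for this comparison (13938 genes), limma called 26% of the genes given a 1.5-fold change, 88% of those given 2-fold and 100% of those given 4-fold. The simulated noise was drawn separately for each gene. It lacks deviations that many genes of 1 array share, so these percentages may not hold for the real arrays. Plots used matplotlib 3.10.9 (Python 3.11.15). The members and lists were chosen with earlier results of these data known.

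Named members followed a rule: well-known chaperones, up to 4 members per family and the 8 lower and 8 higher members with the smallest p, those below the filter, and the 2 genes with the smallest p per partner list. Further genes were named for their role after their values were seen. Alternatives were a filter at the 50th percentile or none, offsets of 1 and 64, median centring, quantile normalization, no trend, array weights, a replicate block, the mean of a gene's probe sets and leaving out each array.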

Additional observations from a re-analysis of the deposited data

Results flagged for a closer look

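The 4 controls of each of the 58 measured members were searched for an array far from the other 3, by the gap to its neighbour over the range (Dixon). This marked 4 members. About 1 in 20 is the nominal rate of the rule for normally spread values. The share of all genes that it marks on these arrays was not computed, so the count is not read as a result about the members. Hspa1a read 135.06 in control 1 beside 80.1 to 87.1 in the other controls, a gap of 0.872 of the range. Hspb1 read 149.93 in control 4 beside 95.98 to 102.0, a gap of 0.888. Hsp90aa1 read 2151 in control 2 beside 1749 to 1811, a gap of 0.845. Dnajc18 read 113.55 in control 3 beside 85.0 to 88.7, a gap of 0.871. Each of the 4 controls was the distant array once. Without control 1 the Hspa1a difference was -0.17 in place of -0.32.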

How the results depend on the processing

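No member passed the adjusted threshold under any of the 17 alternatives. The smallest adjusted p of a member was 0.157, for Hspa8 with a replicate block. Of 30 named members, 23 had a value under all 17 alternatives and 7, Hspa1a among them, under 16, since they lie below the filter at the 50th percentile. In the alternatives that gave a value, 20 kept their sign (Hspa1a, Hspa8, Dnaja4, Dnajc6 and Dnajc15 among them) and 10 changed it at least once. The members' median was below 0 with median centring (-0.03), a replicate block (-0.02), array weights (-0.003), without control 4 (-0.02) and without knockout 2 (-0.004). The count of all genes past the adjusted threshold, 0 in the reported comparison, was 1 with median centring, 5 with array weights, 62 with a replicate block and 0 to 5 when 1 array was left out. The count of genes with an unadjusted p under 0.05 was 904 (378 lower, 526 higher) as reported and 325 to 1867 under the alternatives. The split moved to 578 lower and 531 higher with quantile normalization and to 510 lower and 265 higher with median centring, and the other way to 481 and 1386 with array weights, 478 and 1177 with a replicate block, 491 and 1312 without control 4 and 419 and 1000 without control 3. Among arrays left out it also stood at 457 and 291 without control 2 and 193 and 132 without knockout 1. Members lower at that level, 0 as reported, were 1 with quantile normalization, 1 with median centring (Hspa1a in both), 2 with array weights (Hspa1a, Dnajc15), 4 with a replicate block (Dnaja1, Dnajc15, Hspa1a, Hspa8) and 0 to 1 with 1 array left out, the 1 being Hspa1a without control 3 and Dnajc15 without control 4. Members higher, 1 as reported, were 0 without a filter, 0 with quantile normalization, 0 with median centring, 0 without the trend, 0 with a replicate block, 3 with array weights (Dnaja4, Dnajc6, Hspa12a) and 0 to 1 with 1 array left out, the 1 being Dnaja4 without control 3 and Dnajc6 without control 4 or knockout 2. Members without overlap, 2 as reported, were 1 with a filter at the 50th percentile, 1 with quantile normalization and 1 with median centring. They were 3 to 9 with 1 array left out, where fewer arrays must be separated. The 9 was without knockout 2, and there were 8 without control 4, 5 without control 1 and 4 without control 3. The share of all genes without overlap was not computed under the alternatives, so these counts have no baseline and are not read as a result about the members. Beside the counts of lower and higher members, the share of all genes lower at an unadjusted p under 0.05 was 3.43% with a replicate block, 3.45% with array weights, 4.15% with quantile normalization and 3.66% with median centring. The share higher was 8.44%, 9.94%, 3.81% and 1.90%. With 1 array left out, 1.38% to 3.52% were lower and 0.947% to 9.41% higher. The cause of the other changes was not tested. Same-numbered arrays did not deviate together (correlations of 0.068, 0.153 and -0.531), so the numbers are not taken to pair the mice, and the block drops control 4, which has no partner. Signals near the filter, such as Hspa1a and Hspb3, leave small changes undetectable here, as do 3 and 4 arrays a group.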
